A study of Mus musculus with 4 samples.

Results

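miR-218 and miR-138 are brain-enriched microRNA, and in the mouse each is made from a pair of hairpin genes. Each pair gives the same mature 5p strand, the guide, and a 3p strand that differs between the loci. The guides and the locus-specific 3p strands were taken by name from the count tables, which gives 6 members of the 1966 miRNA listed. They were measured by small RNA sequencing of primary cortical neurons from WT embryos (genotype WT, 2 libraries) and APP/PS1 mutant embryos (TgAD, 2 libraries), with no treatment in either group. The cortex was taken at embryonic day 16 by the methods (the sample labels name a slightly later stage). The neurons were plated in medium with serum and moved to serum-free medium. The methods give 5 days in vitro as the typical time of transfection or peptide treatment. They do not give the culture time of the sequenced neurons. TgAD mice have 2 transgenes, a Swedish-mutant APP that is part mouse and part human, and human PSEN1dE9, which lacks an exon. The prion promoter drives both, chiefly in brain and spinal cord neurons. Each embryo was cultured on its own and genotyped afterwards, so the WT cultures lack both transgenes, and the 2 libraries of a genotype are described as biological replicates. The total RNA came from whole cultures, in which fewer cells of a type and less of an RNA per cell cannot be told apart.

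A hairpin is cut into a duplex of the 5p and 3p strands, and one strand is usually loaded into Argonaute while the other is discarded. The loaded strand finds mRNA mainly through its seed, bases 2 to 8. miR-218 is embedded in the Slit genes, which encode secreted axon guidance proteins, and it is best known from motor neurons. miR-138 is known from dendrites, where it limits the growth of spines through the depalmitoylating enzyme Lypla1. In both families the 5p strand is the one usually loaded, and the 3p strands carry the mark of the locus from which a hairpin was transcribed.

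The mature sequences of all 6 members were found in RefSeq (GRCm38.p6), and they are shown because the seed differs between the 3p strands of a family while the guide is the same. They are written 5′ to 3′ with the seed in capitals.
mmu-miR-218-5p: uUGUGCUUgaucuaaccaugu
mmu-miR-218-1-3p: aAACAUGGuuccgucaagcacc
mmu-miR-218-2-3p: cAUGGUUCugucaagcaccgcg
mmu-miR-138-5p: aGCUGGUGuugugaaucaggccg
mmu-miR-138-1-3p: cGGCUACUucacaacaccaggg
mmu-miR-138-2-3p: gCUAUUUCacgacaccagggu
The 6 strands hold 6 different seeds. The seed of miR-218-5p is also that of miR-7002-3p, and the seed of miR-218-1-3p is also that of miR-496b, but both of these had 0 reads in the 4 libraries. The other 4 seeds occur in no other mature miRNA of the RefSeq table. miR-218-2-3p starts 3 bases further into the duplex than miR-218-1-3p, and over the 19 bases they share they differ by 1 substitution, C12U (counted from the 5′ end of miR-218-1-3p). miR-138-2-3p starts 2 bases further than miR-138-1-3p, with 2 substitutions in 20 shared bases, C7U and A13G (counted from the 5′ end of miR-138-1-3p). The reads were mapped without mismatch, so a read that spans these bases can be placed at only 1 of the 2 hairpins.

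The guide can be told apart by locus only where a read runs past its ends. The guide is written here with 1 base before and 4 bases after it in each hairpin, and the capitals mark the bases at which the hairpins differ.
Mir218-1: GuugugcuugaucuaaccaugugCuU
Mir218-2: UuugugcuugaucuaaccaugugGuG
Mir138-1: cagcugguguugugaaucaggccgUUgC
Mir138-2: cagcugguguugugaaucaggccgACgA
For miR-218-5p the hairpins differ at the base just before the guide, and share 1 base after it. For miR-138-5p they share the base before the guide and differ at the first base after it.

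On GRCm38, Mir218-1 spans 48223942 to 48224051 of chromosome 5 (plus strand), within an intron of Slit2 in each of the 7 annotated transcripts that span it. Mir218-2 spans 35616816 to 35616925 of chromosome 11 (plus strand), in intron 14 of Slit3, which runs from 35612437 to 35622007. Both Mir218 hairpins are 110 bases long and have the strand of their host gene. The Mir138 hairpins lie outside protein-coding genes. Mir138-1, at 122682876 to 122682974 of chromosome 9 (plus strand), overlaps an exon of the transcribed pseudogene Gm47135. Mir138-2, at 94324311 to 94324381 of chromosome 8 (plus strand), lies in the exon of the long noncoding RNA C78859, 7084 bp after the end of Nup93 and 4820 bp before the start of Slc12a3.

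The libraries held between 2070204 and 4811010 reads counted on miRNA, and between 849 and 936 miRNA had at least 1 read. A normalized table was deposited beside the count tables, and the library names in the tables conflict. Its column WT_1 held the reads of the count table of TgAD library 1 for 674 of 674 miRNA, its WT_2 those of WT library 1 and its TR_1 those of TgAD library 2, while its TR_2 matched no count table. Genotypes below follow the labels of the count tables, and the results that turn with the other naming are given as such. Of the cell type markers, those of oligodendrocytes (miR-219a-5p, miR-219a-2-3p and miR-338-3p) were listed at 0 reads in all libraries, and those of myeloid cells summed to between 25.4 and 60.5 CPM (reads scaled to the library size with edgeR's TMM factors), with miR-142a-3p at 0 and neither of the 2 tested past the cutoffs given below for a change. Vascular and mesenchymal markers summed to 901 and 718 CPM in WT and 827 and 756 CPM in TgAD libraries, with miR-126a-3p at 0 and neither of the 2 tested past the cutoffs. miR-451a, a marker of red blood cells, differed between genotypes (log2 fold change -0.72, adjusted p = 0.0707 by edgeR), and the 2 red blood cell markers summed to 1310 and 1331 CPM in WT and 957 and 646 CPM in TgAD libraries. Their part in the results below was not tested.

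Several guides that lie in more than 1 hairpin had few or no counted reads. miR-9-5p, a defining neuronal miRNA whose sequence lies in 3 hairpins, was listed at 0 reads, and miR-124-3p, the main neuronal marker, had between 1 and 7 reads. The neuronal identity of the cultures could therefore not be checked with these, although single-hairpin neuronal miRNA such as miR-132-3p (2228 to 5814 reads) and miR-137-3p (4476 to 11671 reads) were abundant. The neuronal marker miR-128-3p was also abundant (43009 to 240174 reads), although it lies in 2 hairpins. miR-26a-5p, which lies in 2 hairpins, had 17 to 22 reads, while its relative miR-26b-5p, in 1 hairpin, had 4406 to 10560. These pairs were picked after their values were seen. The sources used here do not say how reads with several placements were counted. The oligodendrocyte marker miR-219a-5p, at 0 reads, also lies in 2 hairpins. The myeloid marker miR-142a-3p was at 0 reads while its partner strand miR-142a-5p had 21 to 51. The markers listed at 0 reads therefore do not show that a cell type was absent.

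Against this, the guides of miR-218 and miR-138 were among the best counted of their kind. By name, 28 miRNA families have a shared arm beside a pair of numbered locus-specific arms, and 19 of them had at least 10 locus-specific reads, at least 40 reads in all and a shared arm that lies in 2 hairpins. miR-218-5p had 13789 reads over the 4 libraries, 106 for each locus-specific read, and miR-138-5p had 13397 reads, or 42.1 for each locus-specific read. Among the 19, only miR-128 (717) and miR-92a (222) had higher ratios than miR-218, and miR-138 came next after it, and in 10 the shared arm had more reads than the locus-specific arms. In the 5 families whose hairpins share 2 or more bases after the shared arm, the median of that arm was 48 reads, and in none did it exceed the locus-specific arms. In the 14 that share 1 or none, as miR-218 and miR-138 do, the median was 4631 reads, with miR-29b-3p (2 reads) and miR-135a-5p (11 reads) as the lowest. This grouping was made after the values were seen, and its part in the counts of the guides was not tested. The guide counts below are therefore levels of counted reads, which may leave out reads that were placed at both loci.

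**Figure D1:**
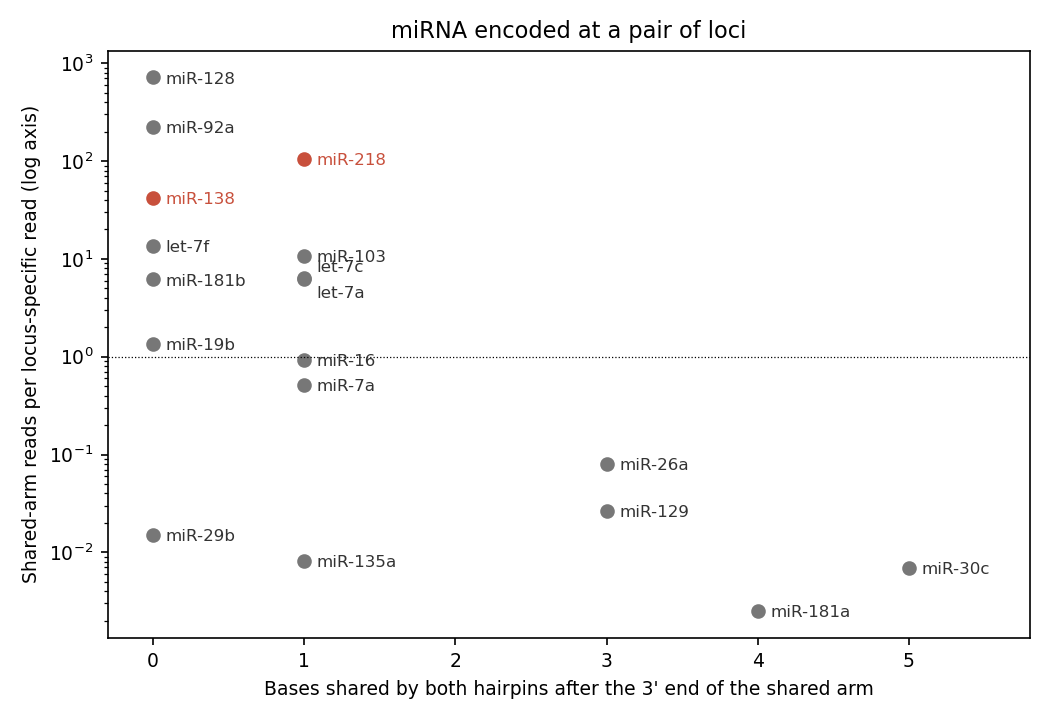
Reads on the shared arm for each read on the locus-specific arms (log axis, summed over 4 libraries) against the number of bases that both hairpins share after the 3′ end of the shared arm, 1 point per family. miR-218 (106) and miR-138 (42.1, both in red) lie in the upper left, while all 4 families plotted at 3 or more shared bases lie below a ratio of 1 (dotted line). miR-365, with 0 shared-arm reads, cannot be drawn on the log axis.

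The relative level of the guides differed between libraries, with miR-138-5p the higher in 3 and miR-218-5p in TgAD library 2. For mmu-miR-218-5p, 2729 and 2237 reads were counted in WT neurons and 2263 and 6560 in TgAD neurons, and its normalized level was 1162 and 768 CPM in WT and 825 and 1631 CPM in TgAD neurons. TgAD library 2 was the highest and WT library 2 the lowest, with TgAD library 1 between the WT libraries, so the genotypes overlapped. For mmu-miR-138-5p, 3885 and 3566 reads were counted in WT neurons and 3330 and 2616 in TgAD neurons, or 1654 and 1225 CPM in WT and 1214 and 650.5 CPM in TgAD neurons. The genotypes did not overlap, but WT library 2 and TgAD library 1 were nearly equal. By level, miR-218-5p ranked from 63 to 95 and miR-138-5p from 59 to 108 among the listed miRNA of a library.

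The 3p strands were far rarer than the guides. miR-138-2-3p was the highest of them in WT neurons, with 15.7 and 19.6 CPM (37 and 57 reads), and had 13.1 and 15.7 CPM (36 and 63 reads) in TgAD neurons. miR-218-2-3p followed at 13.2 and 17.9 CPM in WT (31 and 52 reads), a range that overlaps that of miR-138-2-3p, but had only 1.82 and 8.70 CPM (5 and 35 reads) in TgAD neurons. miR-138-1-3p had 8.09 and 7.56 CPM in WT (19 and 22 reads) and 15.3 and 10.4 CPM in TgAD neurons (42 reads in both). miR-218-1-3p, the strand from the Slit2 locus, had 0 reads in both WT libraries, and TgAD libraries 1 and 2 held 2 and 5 reads of it. At a floor of 3 reads, which is between 0.746 and 1.28 CPM and covers counting error only, its level in WT was not detectable at this depth and no fold change is given. The 2 reads of TgAD library 1 are also below this floor.

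**Figure D2:**
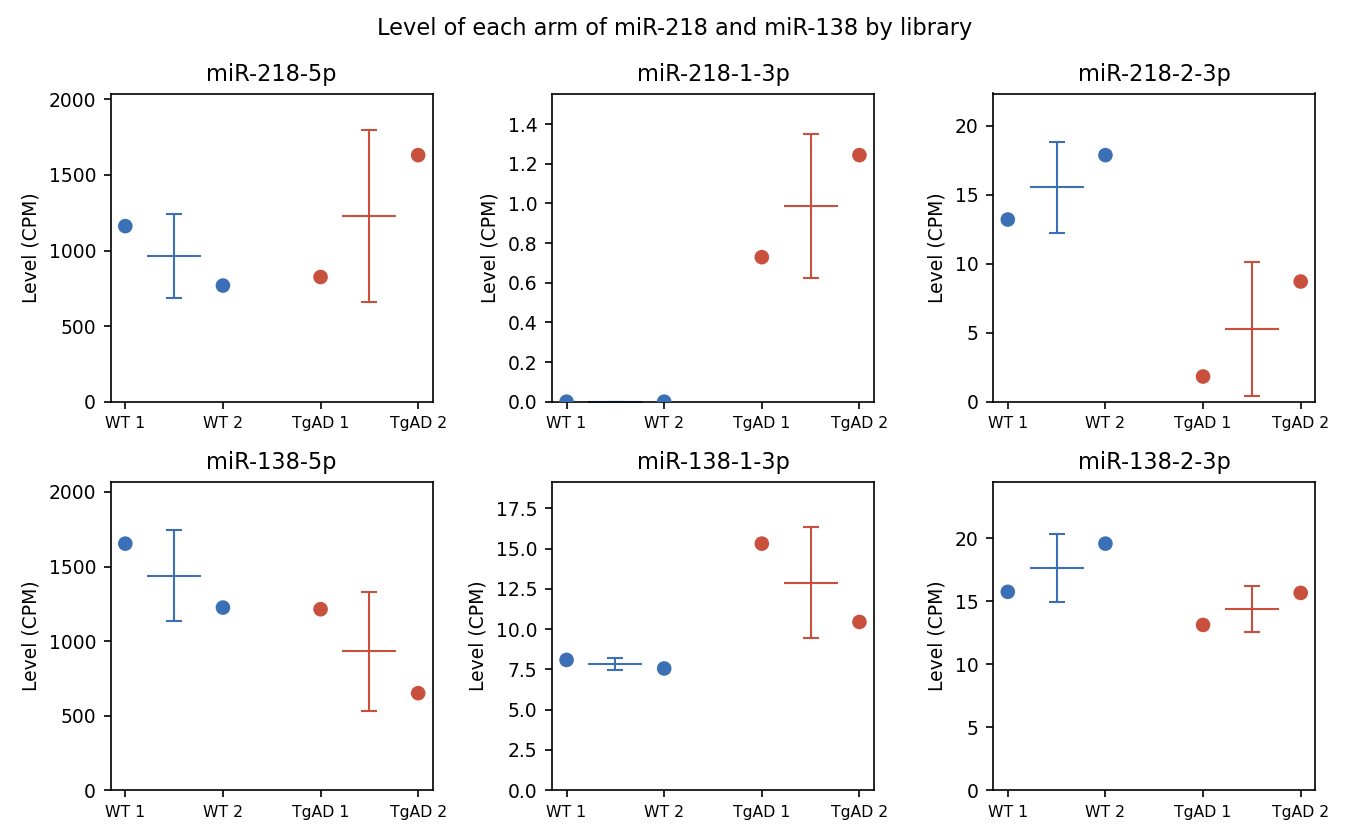
Level of each of the 6 strands in CPM (vertical axes from 0, each with its own scale) in the 2 WT (blue) and 2 TgAD (red) libraries, with the mean and SD of each genotype between its points. miR-218-5p reached 1631 CPM in TgAD library 2 only, and miR-218-2-3p fell to 1.82 CPM in TgAD library 1.

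Which locus contributes was read from the 3p strands, whose shares do not depend on the normalization. A 3p read marks its locus, but not how much guide that locus gave. For miR-218, 123 of 130 locus-specific reads over the 4 libraries came from Mir218-2, in Slit3 (94.6%, 95% exact binomial interval 89.2 to 97.8). The share was 100% in both WT libraries (31 of 31 and 52 of 52 reads, with exact intervals from 88.8 and 93.2 up). A limit of 3 reads, as used for any count of 0, allows a share from Mir218-1 of up to 9.68% and 5.77%. The share from Mir218-2 was 71.4% (29.04 to 96.3) in TgAD library 1 and 87.5% (73.2 to 95.8) in TgAD library 2. All reads from Mir218-1 were in TgAD libraries, but they were only 2 of 7 and 5 of 40 reads. The 2 reads of TgAD library 1 are below the limit of 3 reads. For miR-138 both loci contributed, with 193 of 318 reads from Mir138-2 (60.7%, 55.1 to 66.1). Mir138-2 gave 66.1% (52.2 to 78.2) and 72.2% (60.9 to 81.7) of the 3p reads in the WT libraries, and 46.2% (34.8 to 57.8) and 60.0% (50.0 to 69.4) in the TgAD libraries. Both families therefore had a lower share from the locus numbered 2 in TgAD neurons, by 20.5 percentage points for miR-218 and 16.03 for miR-138, and in neither did the genotypes overlap. With the reads of each genotype summed, the differences were -14.9 points for miR-218 and -15.5 for miR-138. Without TgAD library 1, whose name conflicts between the tables, the differences were -12.5 and -9.11 points. The intervals of both TgAD libraries overlapped those of WT for miR-218, and for miR-138 that of TgAD library 1 lay below that of WT library 2 but overlapped that of WT library 1. An exact two-sided permutation test gave p = 0.333 for each, the smallest that 2 against 2 libraries allow (0.417 after Benjamini-Hochberg adjustment over the 5 shares and ratios tested). With the columns of the normalized table taken by name, the miR-138 share was 46.2% and 66.1% in WT and 60.0% and 74.2% in TgAD columns, the opposite direction, and the miR-218 share 71.4% and 100% in WT and 87.5% and 70.0% in TgAD columns, which overlap.

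**Figure D3:**
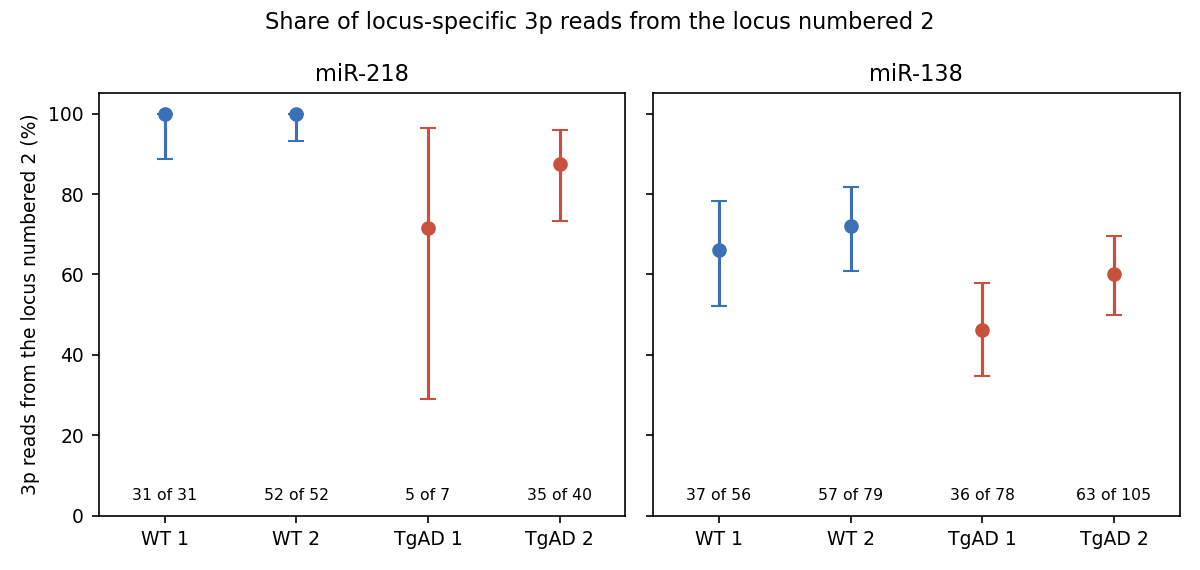
Percentage of locus-specific 3p reads that came from Mir218-2 (left) or Mir138-2 (right) in each library, with 95% exact binomial intervals and the reads behind each point at the bottom. Mir218-2 gave all reads in the WT libraries, and Mir138-2 gave 66.1% and 72.2% in WT against 46.2% and 60.0% in TgAD libraries.

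The reads of the guide for each 3p read were compared within each library. miR-218-5p had 88.0 and 43.0 reads for each 3p read in WT neurons and 323 and 164 in TgAD neurons, and the genotypes did not overlap. The mean log2 ratio was 5.94 ± 0.73 in WT and 7.85 ± 0.69 in TgAD neurons (SD, n = 2 each), a 3.74-fold difference, for which the exact permutation test again gave its smallest p of 0.333. For miR-138-5p the ratio was 69.4 and 45.1 in WT and 42.7 and 24.9 in TgAD neurons, which is 1.72-fold higher in WT (log2 5.81 ± 0.44 and 5.03 ± 0.55, SD, n = 2 each, exact permutation p = 0.333). Leaving out 1 library gave log2 differences between 1.39 and 2.42 for miR-218 (1.41 without TgAD library 1). For miR-138 the difference of -0.78 became -1.17 without TgAD library 1, -1.09 without WT library 2, -0.47 without WT library 1 and -0.39 without TgAD library 2. The interval of TgAD library 1 for miR-218, from 157 to 805, is wide because it rests on 7 reads of the 3p strands. With the columns of the normalized table taken by name, the miR-218 difference was -0.15 on the log2 scale and that of miR-138 -1.41, so that both were negative. Set against each other, miR-218-5p had 0.702, 0.627 and 0.680 reads for each read of miR-138-5p in WT libraries 1 and 2 and TgAD library 1, and 2.51 in TgAD library 2 (95% exact binomial interval 2.40 to 2.62). The TgAD libraries thus lay on both sides of WT library 1, and the exact permutation test of the genotypes gave p = 0.667 (also 0.667 after adjustment). The difference in the log2 ratio, 0.98, was 0.034 without TgAD library 2 and 1.92 without TgAD library 1.

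**Figure D4:**
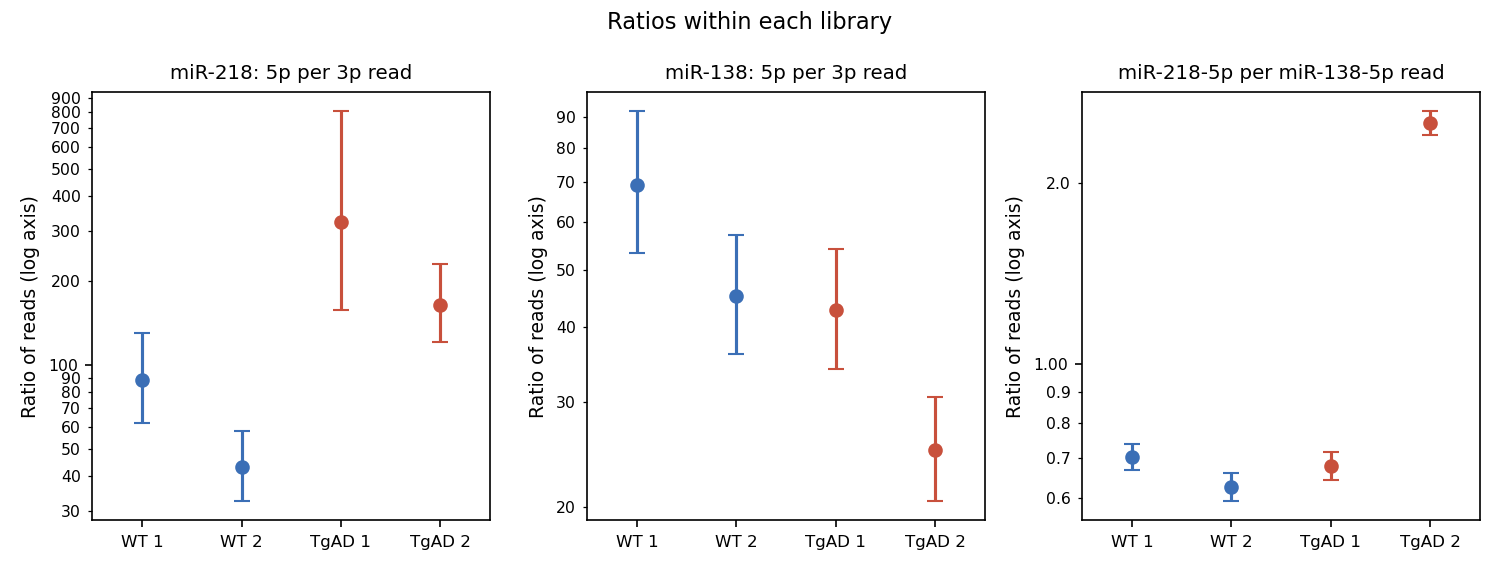
Ratios of reads within each library (log axes) with 95% intervals from the exact binomial limits, for 5p reads per 3p read of miR-218 (left) and miR-138 (middle) and for miR-218-5p per miR-138-5p read (right). In the right panel TgAD library 2, at 2.51, stands apart from the other 3 libraries, at 0.627 to 0.702.

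To ask whether these strands differ between TgAD and WT neurons, all 496 miRNA with enough reads were tested together with edgeR's quasi-likelihood test, with p values adjusted by the Benjamini-Hochberg method. Cutoffs were those of the study, an absolute log2 fold change above 0.6 with an adjusted p below 0.1. Of the 5 members tested, 0 were past these cutoffs, against 33.1% of all tested miRNA. With edgeR, 1 of the 5 had an unadjusted p under 0.05, as did 183 of all 496. DESeq2 also put 0 of them past the cutoffs, against 12.7% of 1131 miRNA. With DESeq2, 2 of them had an unadjusted p under 0.05, as did 174 of the 1131. Other settings of edgeR put 2 past the cutoffs, miR-218-2-3p and miR-138-5p. Their adjusted p values from edgeR were 0.00138 and 0.0130 with the replicate number as a block, where 37.9% of all tested miRNA passed. With total counts as library size they were 0.00659 and 0.0434, and 33.3% of all tested passed. With no filter on low counts they were 0.00275 and 0.0682, and 16.4% of 1131 miRNA passed. miR-218-1-3p did not pass the filter on low counts. In 4 of the 5 the CPM of the genotypes did not overlap, which was so for 63.1% of all tested miRNA.

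miR-218-2-3p had the largest difference, at -1.48 on the log2 scale (standard error 0.608, 95% interval -2.95 to -0.01, adjusted p = 0.134 from edgeR). This rested in part on TgAD library 1, without which it was -0.94, while without TgAD library 2 it was -3.04 (adjusted p = 0.0166) and without WT library 1 -1.67 (adjusted p = 0.0372). In the columns of the normalized table taken by name it was -0.051. For miR-138-5p the log2 fold change was -0.63 (standard error 0.330, 95% interval -1.42 to 0.17, adjusted p = 0.226 from edgeR). It was -1.24 (adjusted p = 0.0402) without TgAD library 1, -0.84 (adjusted p = 0.0632) without WT library 2, -0.38 without WT library 1 and -0.22 without TgAD library 2. The other members had wide intervals that include 0. The log2 fold change was 0.35 (standard error 0.365, -0.53 to 1.23) for miR-218-5p, 0.70 (0.358, -0.16 to 1.57) for miR-138-1-3p and -0.29 (0.299, -1.01 to 0.43) for miR-138-2-3p, with adjusted p values of 0.521, 0.215 and 0.510 from edgeR. That of miR-218-5p rested on TgAD library 2, without which it was -0.20, and it was 0.66 without TgAD library 1, 0.69 without WT library 1 and 0.067 without WT library 2. The base composition of the members differs, with 38.1% G and C in miR-218-5p and 56.5% in miR-138-5p. Over the 441 tested miRNA with a known sequence, G and C content and the uncorrected log2 fold change had a correlation of 0.346. After a correction of each library for G and C content, added once the data had been seen, miR-218-5p (0.95, adjusted p = 0.0702), miR-138-5p (-0.90, adjusted p = 0.0580) and miR-218-2-3p (-1.72, adjusted p = 0.0534) were past the cutoffs in edgeR. So were 30.8% of all 441 miRNA tested with this correction.

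**Figure D5:**
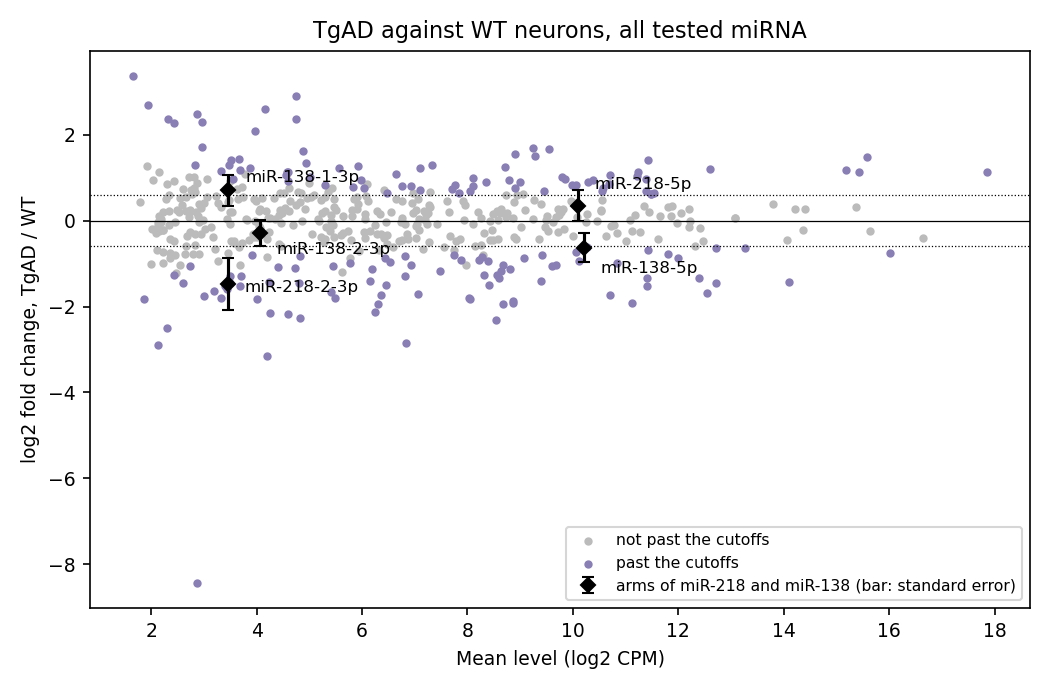
log2 fold change of TgAD over WT neurons against the mean level in log2 CPM for the 496 tested miRNA, in purple where past the cutoffs (dotted lines at 0.6 in size). The 5 tested strands of miR-218 and miR-138 are black diamonds with standard errors, and 0 of them were past the cutoffs.

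The miRNA whose levels followed the guides most closely were found as those with the smallest root mean square distance in log2 CPM over the 4 libraries, after the mean of each miRNA was subtracted. For miR-218-5p these were miR-217-5p (0.119), miR-1251-5p (0.141) and let-7c-1-3p (0.160), against a median distance of 0.561 over all tested miRNA. All 3 were highest in TgAD library 2, where miR-1251-5p had 58.2 CPM against 23.01 to 40.4 CPM in the other libraries. miR-217-5p had only 8 to 26 reads per library. For miR-138-5p the closest were miR-324-5p (0.054), miR-491-5p (0.090) and miR-381-5p (0.104), against a median of 0.599. miR-324-5p had 309 and 222.6 CPM in WT and 207 and 122 CPM in TgAD libraries, the same order of libraries as miR-138-5p. The named miRNA were chosen for their likeness to the guides. A shared peak or order of libraries, and a distance below the median, therefore follow from the choice. These distances describe 4 libraries that share their depth and scaling.

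With the labels of the count tables, some other neuron-enriched miRNA were past the cutoffs. Of a list of 10 such strands, 7 were tested, of which 4 were higher and 1 lower in TgAD neurons and 2 did not pass, with a median log2 fold change of 0.69 against 0.03 over all tested miRNA. Over all tested miRNA 15.7% were higher and 17.3% lower. Higher were miR-124-5p (2.47), miR-128-3p (1.49), miR-132-3p (0.95), the activity-regulated miRNA of the brain, and miR-139-5p (0.69), with adjusted p values of 0.0164, 0.0294, 0.0377 and 0.0402 from edgeR. The value of miR-124-5p rested on only 4 and 6 reads in WT and 24 and 50 in TgAD libraries. Its partner strand miR-124-3p, also on the list, was not tested. miR-137-3p, a regulator of neuronal maturation, fell by 1.53 on the log2 scale (adjusted p = 0.0102 from edgeR). With the correction for G and C content, 2 of the 6 tested were higher and 1 lower, against 68 higher and 68 lower of all 441 tested. miR-137-3p was then at -0.79 (adjusted p = 0.0432), and miR-139-5p (0.40, adjusted p = 0.234) did not pass in edgeR. With total counts as library size miR-139-5p also did not pass (0.43, adjusted p = 0.241 from edgeR). Without TgAD library 1 the log2 fold changes were 2.59 for miR-124-5p, 1.12 for miR-128-3p, 0.52 for miR-132-3p and 0.61 for miR-139-5p. Those of miR-129-5p, miR-137-3p and miR-153-3p were then -0.54, -1.90 and -0.81. Without WT library 1 that of miR-139-5p was 0.62. With the columns of the normalized table taken by name, 0 of the 6 tested passed in edgeR, as did 0 of all 480 miRNA, of which 54 had an unadjusted p under 0.05. The list was made with earlier results of these libraries known, and whether its members differ from miR-218-5p or miR-138-5p was not tested.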

How the data were processed

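Small RNA was sequenced in 4 libraries, 2 WT and 2 TgAD. The authors mapped adapter-trimmed 50 bp reads to GRCm38 (GRCm38.p6 in the submitters' processing notes) with Bowtie2 without mismatch, assigned them to the mature miRNA of miRBase 22.1 by HTSeq-count, and deposited the counts without normalization. The handling of reads with several placements is not given in the sources used here. They also deposited a signal table of counts divided by size factors, in which 100% of the values gave whole reads (within 0.02). Its columns are not those of the libraries they name, and it was used only for that comparison and as an alternative.

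In R 4.3.3, edgeR 4.0.16 (with limma 3.58.1) was run on the counts with TMM, filterByExpr (496 miRNA kept) and the quasi-likelihood test, and the model held genotype alone. The standard error is the log2 fold change divided by the square root of F. DESeq2 1.42.0 was an alternative. Other alternatives were RLE, total counts as library size, other filters, a replicate block and leaving out each library. A G and C correction (loess, span 0.75, prior count 2) on the mature sequence, known for 441 of the 496, was added later. Intervals of shares are exact (Clopper-Pearson), and permutation tests are exact and two-sided. Intervals and floors cover counting error only, as the reads carry no molecular identifiers.

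Sequences and hairpin coordinates came from RefSeq (1675 of 1966 listed miRNA matched) and host genes from GENCODE M21, both on GRCm38. The procedure was tested on simulated counts. The named miRNA were the 6 members, those that share their seeds, the 3 closest profiles to each guide, the neuron-enriched list, the cell type markers and families with a pair of loci. Members and lists were chosen with earlier results of these data known. The other experiments of the study were not analysed here.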

Additional observations from a re-analysis of the deposited data

How the results depend on the processing

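For the 5 tested strands, the planned settings that kept all libraries did not turn the direction, and with RLE, with at least 10 reads in every library and with DESeq2 no strand passed the cutoffs (miR-218-2-3p was not tested with at least 10 reads in every library). miR-218-2-3p passed with total counts as library size (-1.79) and with no filter on low counts (-1.53), and miR-138-5p likewise (-0.86 and -0.66). With total counts the median of all tested miRNA moved to -0.23, and of 165 calls 26.1% were higher in TgAD, against 47.6% of 164 with TMM. The replicate numbers are not stated to pair the samples (correlation of deviations 0.216). With the replicate block 188 miRNA passed, among them miR-218-2-3p (-1.62) and miR-138-5p (-0.68). With the G and C correction, 3 strands passed, miR-218-5p (0.95), miR-218-2-3p (-1.72) and miR-138-5p (-0.90), against 30.8% of all 441 miRNA tested with it. Leaving out 1 library, where a lone library is assumed to vary like the others, gave -0.20 to 0.69 for miR-218-5p, -3.04 to -0.94 for miR-218-2-3p, -1.24 to -0.22 for miR-138-5p, 0.32 to 0.997 for miR-138-1-3p and -0.42 to -0.14 for miR-138-2-3p. The difference in locus share then ran from -28.6 to -12.5 percentage points for miR-218 and from -22.96 to -9.11 for miR-138, and that of the log2 guide ratio from 0.034 without TgAD library 2 to 1.92 without TgAD library 1.

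The normalized table with its columns by name, added after the data were seen, turned miR-138-1-3p (-0.067), miR-138-2-3p (0.78), the miR-138 locus share (11.0 points) and the miR-218 strand ratio (-0.15). It moved the miR-218 locus share to -6.96 points and the miR-138 strand ratio to -1.41, and 0 of 480 miRNA were past the cutoffs in edgeR, with 54 at an unadjusted p under 0.05. Its 4 libraries are not the 4 of the count tables. Counts of 0 to 5 reads per library for miR-218-1-3p were too low for a fold change at this depth.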

Other observations

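The column TR_2 of the deposited normalized table, which equals no count table, gave 1926952 recovered reads. It held 1404 reads of miR-218-5p, 1041 of miR-138-5p, 3 of miR-218-1-3p, 7 of miR-218-2-3p, 16 of miR-138-1-3p and 46 of miR-138-2-3p. Of its locus-specific 3p reads, 70.0% of those of miR-218 and 74.2% of those of miR-138 came from the locus numbered 2, and its log2 ratio of miR-218-5p to miR-138-5p was 0.43, between that of TgAD library 2 (1.33) and those of the other 3 count tables (-0.67 to -0.51).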
